A study of Mus musculus with 23 samples.

Results

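The insulin-like growth factor family described here comprised 10 of the 54354 genes in the deposited count table: the binding protein genes Igfbp2, Igfbp3, Igfbp4, Igfbp5, Igfbp6 and Igfbp7, the ligand genes Igf1 and Igf2, and the receptor genes Igf1r and Igf2r. The members were taken by family name, and Igfbp3 was selected on its low counts in GFP-positive libraries. That contrast was therefore used for the choice, and the values of Igfbp3 in it are given as a description without a p-value. All 10 genes were measured in 23 bulk RNA libraries from mouse tumours, 12 of them from GFP-negative and 11 from GFP-positive cells. Every library carried the same label for genotype, Basp1-GFP, and for tissue, colon. The tumours came from AKP-tdT organoids (cultured mouse intestinal tumour epithelium with a red fluorescent marker) that carried a Basp1-eGFP-DTR reporter, that is, green fluorescent protein and a diphtheria toxin receptor tied to the Basp1 gene. These organoids were placed in the colon of mice, and primary tumours were dissociated and sorted on GFP alone as far as the labels say. No label gives a host strain, an age, a treatment or the number of organoid lines. The letters HFD, which may stand for a high-fat diet, stand in the title of the series, and which libraries, if any, came from animals on such a diet is not given in the sources used here. A sorted fraction of a dissociated tumour can also hold cells of the host, and the labels do not say whether the red marker was used as a gate.

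Insulin-like growth factors are small secreted hormones that act on growth and survival. Igf1 and Igf2 proteins bind the receptor tyrosine kinase made from Igf1r, which signals through insulin receptor substrates to the PI3K, AKT and mTOR pathway, whereas the receptor made from Igf2r takes Igf2 into lysosomes and does not signal as a kinase. The binding proteins hold the ligands outside the cell, prolong or block their action, and are released by proteases; in the gut wall, stromal cells such as fibroblasts are a well known source of several of them and of the ligands.

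The libraries were shallow and uneven, with total counts from 25458 to 4238877, and 4 libraries held fewer than 100000 counts. Values are given as CPM, the count divided by the library total and scaled to 1e6, and a library at 0 counts could still hold up to 3 counts' worth of a transcript, which is 118 CPM in the shallowest library. The numbers in the library names form a lower and an upper run. Library set 1 is the lower run, with 6 GFP-negative and 5 GFP-positive members, and library set 2 the upper, with 6 of each. The runs could be batches, so each comparison is given within each of them as well as over all libraries. Basp1 itself, the gene that carries the reporter, had a log2 fold change of 0.63 (SE 0.38, GFP-positive over GFP-negative) and an edgeR Benjamini-Hochberg adjusted p of 0.997. Separate animals are not named as the source of separate libraries, so the tests measure the spread between libraries, which may in part be technical. Over all libraries 1 of 6621 tested genes (0.0151%) passed the adjusted threshold of 0.05, in library set 1 0 of 5256 (0%), and in library set 2 89 of 6952 (1.28%), of which 86 were lower (1.24%) and 3 higher (0.0432%) in GFP-positive libraries.

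The binding protein genes on which the comparison turned differ in the sequence just upstream of their starts. The 250 bases before the annotated RefSeq start are shown 5′ to 3′ on the gene's strand (GRCm38.p6, which is mm10) for Igfbp3, for both genes that passed the test in library set 2, and for Igfbp7, the member with the highest level. The windows are chr11:7213924-7214173 on the minus strand for Igfbp3, chr11:99040994-99041243 on the plus strand for Igfbp4, chr1:72874866-72875115 on the minus strand for Igfbp5 and chr5:77408046-77408295 on the minus strand for Igfbp7. Capitals mark matches on either strand. The motif searched near the start was TATANA, called TATA-like here. The other motif, known as a GC box, was GGGCGG.
Igfbp3: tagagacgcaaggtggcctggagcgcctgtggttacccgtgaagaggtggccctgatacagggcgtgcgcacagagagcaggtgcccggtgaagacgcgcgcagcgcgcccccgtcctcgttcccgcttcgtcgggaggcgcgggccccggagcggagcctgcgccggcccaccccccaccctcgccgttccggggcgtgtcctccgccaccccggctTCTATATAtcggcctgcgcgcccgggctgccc
Igfbp4: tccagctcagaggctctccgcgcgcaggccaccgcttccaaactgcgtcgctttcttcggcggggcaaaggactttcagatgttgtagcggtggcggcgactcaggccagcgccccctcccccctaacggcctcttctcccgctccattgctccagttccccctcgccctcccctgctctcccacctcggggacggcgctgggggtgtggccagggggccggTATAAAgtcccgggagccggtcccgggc
Igfbp5: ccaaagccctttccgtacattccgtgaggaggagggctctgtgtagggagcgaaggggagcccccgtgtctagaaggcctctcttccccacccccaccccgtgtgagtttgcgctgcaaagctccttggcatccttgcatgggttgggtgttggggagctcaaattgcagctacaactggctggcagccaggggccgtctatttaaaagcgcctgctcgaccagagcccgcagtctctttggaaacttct
Igfbp7: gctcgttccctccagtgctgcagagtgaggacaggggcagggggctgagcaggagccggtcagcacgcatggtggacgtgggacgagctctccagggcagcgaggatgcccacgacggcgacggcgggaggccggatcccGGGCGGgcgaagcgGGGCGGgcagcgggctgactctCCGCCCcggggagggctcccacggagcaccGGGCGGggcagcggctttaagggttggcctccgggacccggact
In Igfbp3 the capitals hold 2 overlapping TATA-like matches, at 32 to 27 and 30 to 25 bases before the start, and in Igfbp4 a TATA-like match lay at 28 to 23 bases. Igfbp7 had 4 GC boxes, at 110 to 105, 96 to 91, 74 to 69 and 44 to 39 bases before the start, and no TATA-like match. Igfbp5 had neither motif in this window. Of 32851 RefSeq promoter windows of this length, 22.6% held the TATA-like letters and 32.7% the GC box letters, so each motif is common. The GC content was 73.2% for Igfbp3, 69.2% for Igfbp4, 58.8% for Igfbp5 and 74% for Igfbp7, against a median of 52.4% over all windows. All 10 members had at least 1 RefSeq window.

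Igfbp3 encodes the main carrier of insulin-like growth factors in blood, and it lies on chromosome 11 at 7206086 to 7213923 on the minus strand (mm10). In GFP-negative libraries it ran from 0 to 316 CPM with a median of 74.2, and in GFP-positive libraries from 0 to 111 CPM with a median of 19.3. The means were 97.2 ± 87.7 (SD, n = 12) and 28.4 ± 30.7 CPM (SD, n = 11). The populations overlapped, because GFP-positive 1 lay among the higher GFP-negative libraries and GFP-negative 5, the shallowest library, had no Igfbp3 count. Over all libraries the fold change on the log2 scale was -1.72 (SE 0.44). With 1 library left out it ran from -2.19, without GFP-positive 1, to -1.51. The 6 GFP-negative libraries of library set 2 ran from 68.6 to 316 CPM and the 6 GFP-positive libraries from 7.98 to 53.6 CPM, so each GFP-positive library lay below each GFP-negative one. That order held for 58 of 6952 tested genes there (0.834%), and the reverse order for 19 (0.273%). Since Igfbp3 was chosen for this difference nothing is read from it. The GFP-negative libraries of library set 1 read 75.3, 30.5, 31.8, 69.3, 0 and 77.7 CPM. The GFP-positive libraries of that set read 111, 19.3, 20.8, 0 and 16.3 CPM, so GFP-positive 1 exceeded every GFP-negative library and the other GFP-positive libraries were below all but GFP-negative 5. Fitted log2 fold changes were -2.55 (SE 0.46) in library set 2 and -0.53 (SE 0.58) in library set 1.

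**Figure D1:**
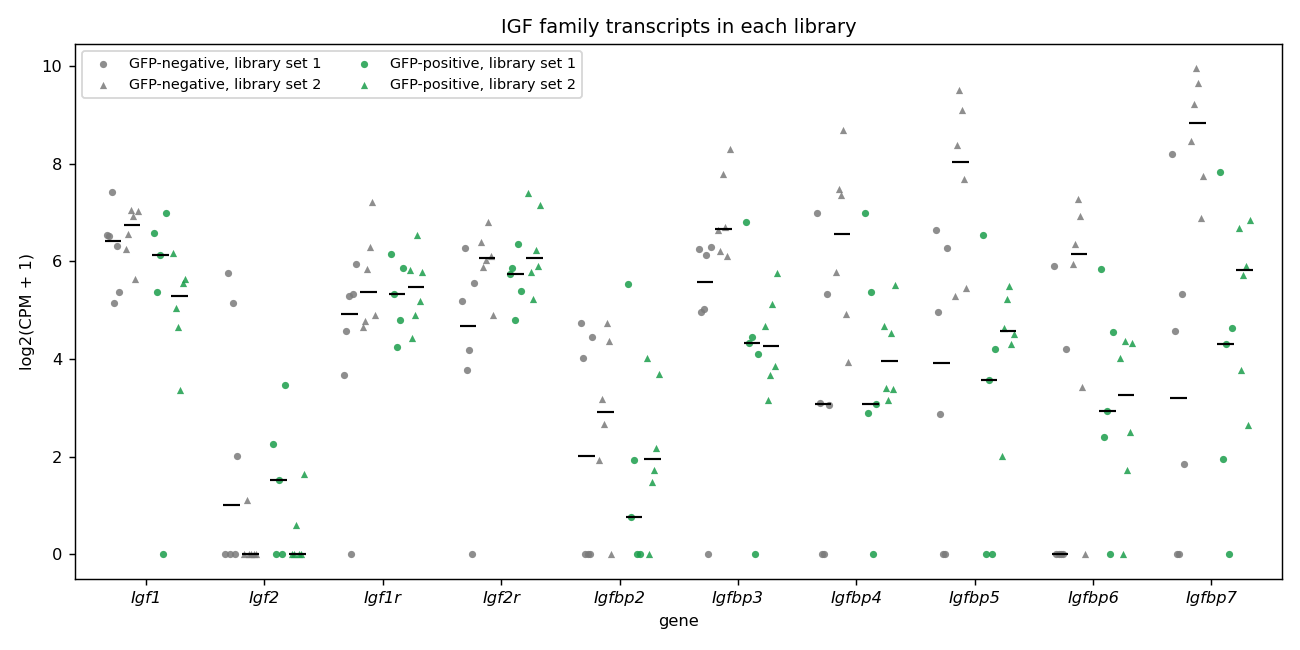
Level of each family member in each library, as log2(CPM + 1) on the vertical axis, with genes along the horizontal axis. Grey symbols are GFP-negative and green symbols GFP-positive libraries, circles are library set 1, triangles are library set 2, and bars are medians. The triangles separate by colour for Igfbp3 and Igfbp7 and overlap for the receptors Igf1r and Igf2r.

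Over all libraries none of the other 7 members that passed the expression filter passed the adjusted test (edgeR quasi-likelihood, Benjamini-Hochberg adjusted p from 0.729 to 0.997), against 0.0151% of all genes. At an unadjusted p under 0.05 there were 5 of these 7, all with lower values in GFP-positive libraries. Of all 6621 genes 328 were under it, 147 of them lower and 181 higher. DESeq2 called 0 of these 7 members over all libraries and 5 of 7 in library set 2. In library set 2 DESeq2 and edgeR without the expression filter each called more genes than the main fit, with counts given in the last section. The median log2 fold change over all tested genes was 0.07, so the scale was close to balanced, with 41.5% of genes below 0.

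Igfbp5 and Igfbp4 fell in the GFP-positive libraries of library set 2 and were the members other than Igfbp3 to pass the test there, 2 of 7 against 1.24% of all genes called lower. Igfbp5 encodes the most conserved binding protein, which also binds extracellular matrix, and lies on chromosome 1 at 72857932 to 72874884 on the minus strand. Its promoter window had neither motif. The 6 GFP-negative libraries of library set 2 ran from 38.2 to 730 CPM with a median of 270.0, and the 6 GFP-positive libraries from 3.07 to 44.3 CPM with a median of 22.9. Only the lowest GFP-negative libraries, 7 and 12 at 38.2 and 43.1 CPM, reached into the GFP-positive range. Igfbp5 had a log2 fold change of -3.63 (SE 0.74, edgeR adjusted p = 0.0373). Library set 1 gave other values for Igfbp5. GFP-negative libraries read 98.9, 30.5, 6.35, 0, 0 and 76.8 CPM and GFP-positive libraries 91.8, 0, 10.9, 0 and 17.5 CPM. There the populations overlapped fully and Igfbp5 did not reach the expression filter, with a log2 fold change of -0.64 (SE 1.2).

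Igfbp4, on chromosome 11 at 99041244 to 99054392 on the plus strand, encodes a binding protein that blocks ligand action until the protease Pappa cuts it. Igfbp4 ran in library set 2 from 14.4 to 413 CPM in GFP-negative libraries (mean 142 ± 150, SD, n = 6) and from 7.94 to 45.1 CPM in GFP-positive libraries (mean 19.8 ± 14.3, SD, n = 6). GFP-negative 7, 8, 9 and 10 lay above all GFP-positive libraries, whereas GFP-negative 11 and 12, with 3 counts and 1 count, lay within their range. Igfbp4 had a log2 fold change of -2.89 (SE 0.64, edgeR adjusted p = 0.0333). In library set 1 it was 0.36 (SE 1.2) below the expression filter, with GFP-negative 1 at 127 CPM and GFP-positive 1 at 126 CPM far above the other 9 libraries of that set. Both calls depended on single libraries, and that of Igfbp4 was also lost when libraries were blocked by the identifier that begins their names. The edgeR adjusted p of Igfbp4 ranged from 0.00842 to 0.118 over the 12 fits that each left out 1 library, and the call was lost without GFP-negative 8 or 9 or without GFP-positive 6, 7, 8, 9 or 10. For Igfbp5 it ranged from 0.00375 to 0.104, and the call was lost without GFP-negative 8 or 10 or without GFP-positive 7, 8, 9, 10 or 11.

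Igfbp7 encodes a secreted protein related to the binding proteins that binds insulin-like growth factors weakly and is laid down around vessels and fibroblasts. It lies on chromosome 5 at 77349240 to 77408041 on the minus strand, below the window with 4 GC boxes. Its library set 2 values ran from 118 to 993 CPM in GFP-negative libraries (mean 513 ± 345, SD, n = 6) and from 5.30 to 115 CPM in GFP-positive libraries (mean 57.7 ± 44.7, SD, n = 6). The populations did not overlap, although GFP-negative 11 at 118 and GFP-positive 11 at 115 CPM nearly met, and 0.834% of all genes showed that order. Igfbp7 had a log2 fold change of -3.23 (SE 0.75), which did not pass the test (edgeR adjusted p = 0.0890; 0.0486 without GFP-negative 11; DESeq2 adjusted p = 0.000423). Most library set 1 values were near 0 in both populations. GFP-negative 1 held 292 CPM and GFP-positive 1 held 228 CPM, and the others lay between 0 and 39.3 CPM. Its log2 fold change in that set was -0.11 (SE 1.48), below the expression filter.

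Igfbp6 encodes a binding protein that prefers Igf2, and lies on chromosome 15 at 102144362 to 102149511 on the plus strand. The GFP-negative libraries of library set 2 ran from 0 to 155 CPM with a median of 71.0, and the GFP-positive libraries from 0 to 19.7 CPM with a median of 10.04. GFP-negative 7, 8, 9 and 10 stood above all GFP-positive libraries, while GFP-negative 11 and 12 held 1 count and none. Its log2 fold change of -2.87 (SE 0.70) missed the threshold in edgeR (adjusted p = 0.0527). Igfbp6 passed without GFP-negative 11 or 12 or without GFP-positive 7 or 8. It also passed without the expression filter (edgeR adjusted p = 1.05e-05) and in DESeq2 (adjusted p = 0.00452), both of which called more genes there than the main fit. In library set 1 the log2 fold change of Igfbp6 was 0.21 (SE 0.88), with no count in 4 of 6 GFP-negative libraries.

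Igfbp2, which encodes a binding protein often raised in tumours, lies on chromosome 1 at 72824503 to 72852474 on the plus strand, next to Igfbp5. It was low in both populations, from 0 to 25.9 CPM (median 6.73) in GFP-negative and from 0 to 45.5 CPM (median 2.33) in GFP-positive libraries. The ranges overlapped in both library sets, and 193 of the 238 GFP-positive counts came from GFP-positive 1. Igfbp2 was below the expression filter, and its log2 fold change in a fit of all genes was -0.38 (SE 0.64, edgeR adjusted p = 0.844).

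**Figure D2:**
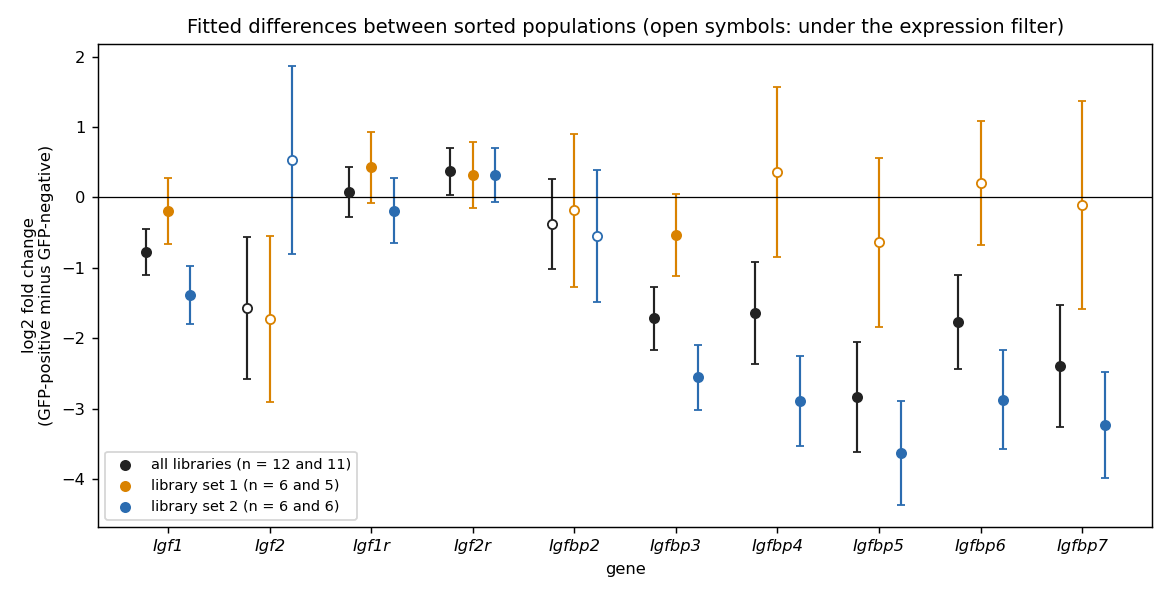
Fitted log2 fold change, GFP-positive over GFP-negative, for each member on the vertical axis, with bars of 1 SE. Black is all libraries, orange library set 1 and blue library set 2, and open symbols mark members below the expression filter. In library set 2 Igfbp3 to Igfbp7 lay between -2.55 and -3.63, and in library set 1 between -0.64 and 0.36.

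Igf1 encodes the main growth hormone-dependent ligand and lies on chromosome 10 at 87858265 to 87937042 on the plus strand. Its GFP-negative libraries ran from 34.6 to 172 CPM with a median of 91.6, and its GFP-positive libraries from 0 to 126 CPM with a median of 45.9. The populations overlapped, and only GFP-positive 4, among the shallowest libraries, had no count. Over all libraries Igf1 had a log2 fold change of -0.77 (SE 0.33, edgeR adjusted p = 0.985). In library set 2 the ranges were 49.0 to 133 CPM and 9.33 to 70.7 CPM, with only GFP-negative 11 at 49.0 CPM below the highest GFP-positive library. The log2 fold change there was -1.39 (SE 0.41) and missed the threshold in edgeR (adjusted p = 0.129), but passed in DESeq2 (adjusted p = 0.0261). In library set 1 it was -0.19 (SE 0.46, edgeR adjusted p = 0.970).

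Igf2, the imprinted fetal ligand gene on chromosome 7 at 142650766 to 142666816 on the minus strand, was at the detection limit. It had no count in 8 of 12 GFP-negative and 6 of 11 GFP-positive libraries, and 17 and 33 counts in all. Its highest value, 53.3 CPM in GFP-negative 2, rested on 7 counts. The antisense transcript Igf2os and the gene model Gm49394 overlap Igf2, and how the counting used strand is not given in the sources used here, so these few counts may not all belong to Igf2. No difference between the populations was detectable at this depth (log2 fold change -1.58, SE 1.01, edgeR adjusted p = 0.539, below the expression filter).

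Both receptor genes had overlapping levels in the populations. Igf1r, on chromosome 7 at 67952827 to 68233668 on the plus strand, encodes the signalling receptor. It ran from 0 to 147 CPM (mean 44.5 ± 38.8, SD, n = 12) in GFP-negative libraries and from 17.9 to 92.1 CPM (mean 45.3 ± 22.9, SD, n = 11) in GFP-positive libraries. GFP-negative 11 was highest and GFP-negative 4, one of the shallowest libraries, had no count, so the GFP-negative range enclosed the GFP-positive one. For Igf1r the difference on the log2 scale was 0.08 (SE 0.35, 95% interval -0.62 to 0.77, edgeR adjusted p = 0.997), 0.43 (SE 0.51) in library set 1 and -0.19 (SE 0.46) in library set 2.

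Igf2r encodes the clearance receptor, also the mannose 6-phosphate receptor of lysosomal sorting, and lies on chromosome 17 at 12682406 to 12769664 on the minus strand. It ran from 0 to 112 CPM (mean 50.2 ± 32.9, SD, n = 12) in GFP-negative and from 26.9 to 169 CPM (mean 72.4 ± 44.5, SD, n = 11) in GFP-positive libraries. The ranges overlapped, with GFP-positive 6 and 11 highest. For Igf2r the difference on the log2 scale was 0.37 (SE 0.33, 95% interval -0.28 to 1.02, edgeR adjusted p = 0.997), 0.31 (SE 0.47) in library set 1 and 0.32 (SE 0.38) in library set 2. The antisense RNA Airn overlaps Igf2r, so its counts carry the same doubt about strand as those of Igf2.

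Whether the difference between populations differed between the library sets was tested as an interaction, which gives the log2 fold change in library set 2 minus that in library set 1. It was -3.09 (SE 1.34) for Igfbp4, -2.78 (SE 1.33) for Igfbp5, -2.91 (SE 1.26) for Igfbp6 and -2.95 (SE 1.55) for Igfbp7. None of the 8 tested members other than Igfbp3 passed (edgeR adjusted p from 0.679 to 0.9995), and 0 of 8698 genes passed (0%), with 585 genes at an unadjusted p under 0.05. For Igfbp3 the difference was -2.01 (SE 0.78). The larger values in library set 2 were therefore not shown to differ from those in library set 1.

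Each library name begins with an identifier, and 9 identifiers had libraries of both populations by name. The tenth was formed by putting 2 separately named GFP-negative libraries (4 and 5) with GFP-positive 4, whose name joins both of theirs. Within identifiers Igfbp3 and Igfbp5 were each lower in GFP-positive libraries in 9 of 10, with mean log2 ratios of CPM + 1 of -2.21 ± 1.58 and -2.38 ± 1.76 (SD, n = 10). Igfbp4 and Igfbp7 were lower in 8, Igfbp6 and Igf1 in 7, and Igfbp2 in 6. Igf1r was lower in 3 identifiers and Igf2r in 6, with means of 0.20 ± 1.41 and 0.37 ± 1.37 (SD, n = 10). Over the 8 identifiers left by libraries of at least 100000 counts the mean of Igf2r turned to -0.21 ± 0.69 (SD, n = 8), lower in 6 of 8, and that of Igf1r was 0.083 ± 1.56 (SD, n = 8). Identifier 3034 was the only one whose GFP-positive library was higher in Igfbp3, by 0.55. Igfbp4, Igfbp5, Igfbp6 and Igfbp7 differed little between its libraries. Other identifiers had larger reversals. Igfbp6 was 4.56 higher in 7421 and 4.32 higher in 7968, where the GFP-negative libraries held no Igfbp6 count. Igfbp4 was 1.59 higher in 7968. Igfbp4 and Igfbp7 were 2.31 and 2.46 higher in the identifier of GFP-negative 6 and GFP-positive 3. Igfbp5 was higher in none. What an identifier stands for is not given in the sources used here. Identifiers with more than 1 library of a population entered as the mean.

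**Figure D3:**
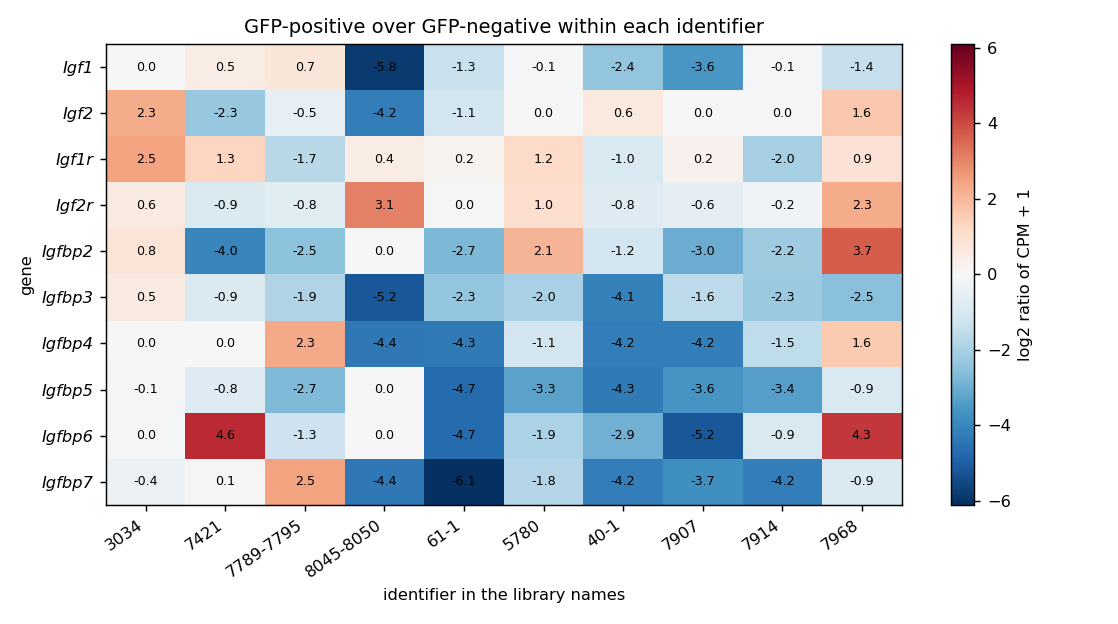
Log2 ratio of CPM + 1, GFP-positive over GFP-negative, for each member (rows) in each of the 10 identifiers (columns), with the value printed in each cell and blue for lower in GFP-positive libraries. Igfbp3 and Igfbp5 are blue in 9 columns, and Igf1r and Igf2r show both colours.

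Per kilobase of exon, which allows levels of different genes to be compared, Igfbp7 was the highest member in both populations. Its mean was 236.9 ± 282 CPM per kb in GFP-negative libraries (SD, n = 12) and 46.6 ± 57.3 in GFP-positive libraries (SD, n = 11). In GFP-negative libraries the order went on with Igfbp6 at 37.7, Igfbp3 at 31.1, Igfbp5 at 29.3, Igfbp4 at 19.5 and Igf1 at 9.33 CPM per kb, and Igfbp2, Igf2r, Igf1r and Igf2 followed from 5.58 down to 1.34. In GFP-positive libraries Igf2r, at 7.77 CPM per kb, stood behind Igfbp7, Igfbp6 (12.4) and Igfbp3 (9.07), and Igfbp5 was at 4.06. Almost no neighbours in either order differed by more than the larger of their SDs. The exception was Igf1r over Igf2 in GFP-positive libraries, at 2.70 against 0.29 CPM per kb.

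In library set 2 fibroblast, macrophage and smooth muscle markers were lower in GFP-positive libraries, as Igfbp3 to Igfbp7 were. Markers of other cell types did not all do so, and the part of any in the result was not tested. All 10 listed fibroblast markers had counts, and their summed level ran from 153 to 9114 CPM in GFP-negative libraries and from 26.9 to 2185 CPM in GFP-positive libraries. In library set 2 the sums did not overlap, at 1207 to 9114 CPM against 172 to 1140 CPM, whereas in library set 1 both libraries of identifier 3034 were high (2599 and 2185 CPM) and the other libraries lay between 26.9 and 668 CPM. The defining fibroblast marker Col1a1 had no count in 1 library of each population. Which cells gave the fibroblast marker signal was not tested. In these bulk libraries fewer such cells and less RNA per cell cannot be told apart. Macrophage and monocyte markers, all 10 with counts, summed in library set 2 to 2235 to 6017 CPM in GFP-negative and 123 to 753 CPM in GFP-positive libraries. In library set 1 their sum reached 30394 CPM in GFP-positive 3, beside 1051, 189, 350 and 358 CPM in the other GFP-positive libraries. The GFP-negative libraries of that set ran from 384 to 6525 CPM. All 6 tested macrophage markers had a fitted log2 fold change above 0 there (median 1.74). The median sum was nevertheless lower in GFP-positive libraries, at 358 against 943 CPM. Smooth muscle and pericyte markers, all 8 with counts, also did not overlap in library set 2, at 245 to 749 CPM against 26.8 to 178 CPM, and endothelial markers had medians there of 184 and 80.5 CPM. Epithelial markers were high throughout, from 2900 to 7804 CPM in GFP-negative and 3607 to 10212 CPM in GFP-positive libraries, and Epcam had counts in every library. Neutrophil and erythrocyte markers overlapped in library set 2, with medians of 462 and 331 CPM and of 158 and 101 CPM in GFP-negative and GFP-positive libraries. T and NK cell markers were at or near 0, with 2 of 8 or fewer seen in a population. B and plasma cell markers reached 50.8 CPM at most, with 2 of 6 seen in each population.

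Across the 19 libraries with at least 100000 counts, the Spearman rho with the summed fibroblast markers was 0.94 for Igfbp7, 0.86 for Igfbp4, 0.77 for Igfbp5, 0.70 for Igfbp6 and 0.69 for Igfbp3. Over all 19 libraries the receptors and the ligand Igf1 followed the fibroblast sum less closely, at 0.46 for Igf2r, 0.23 for Igf1r and 0.30 for Igf1. Within GFP-negative libraries rho with that sum was 0.57 for Igf2r and 0.50 for Igf1r, beside 0.67 (Igfbp3) to 0.88 (Igfbp7) for the binding protein genes. Within GFP-positive libraries it was 0.32 for Igf2r and 0.38 for Igf1r, beside 0.42 (Igfbp6) to 0.90 (Igfbp7). For Igf1 rho with the summed macrophage markers was 0.63 over all 19 libraries, 0.17 within GFP-negative and 0.81 within GFP-positive libraries. These values are descriptions over libraries that share depth and population. Igfbp4, Igfbp5, Igfbp6 and Igfbp7 also followed each other, with rho from 0.64 to 0.91 over all 19 libraries, from 0.85 to 0.94 within the 9 GFP-negative and from 0.18 to 0.67 within the 10 GFP-positive libraries. Igf1r and Igf2r had rho with these 4 genes from 0.11 to 0.44 over all 19 libraries. Their range was 0.20 to 0.58 within GFP-negative and -0.32 to 0.62 within GFP-positive libraries, where it overlapped that among the 4 genes.

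**Figure D4:**
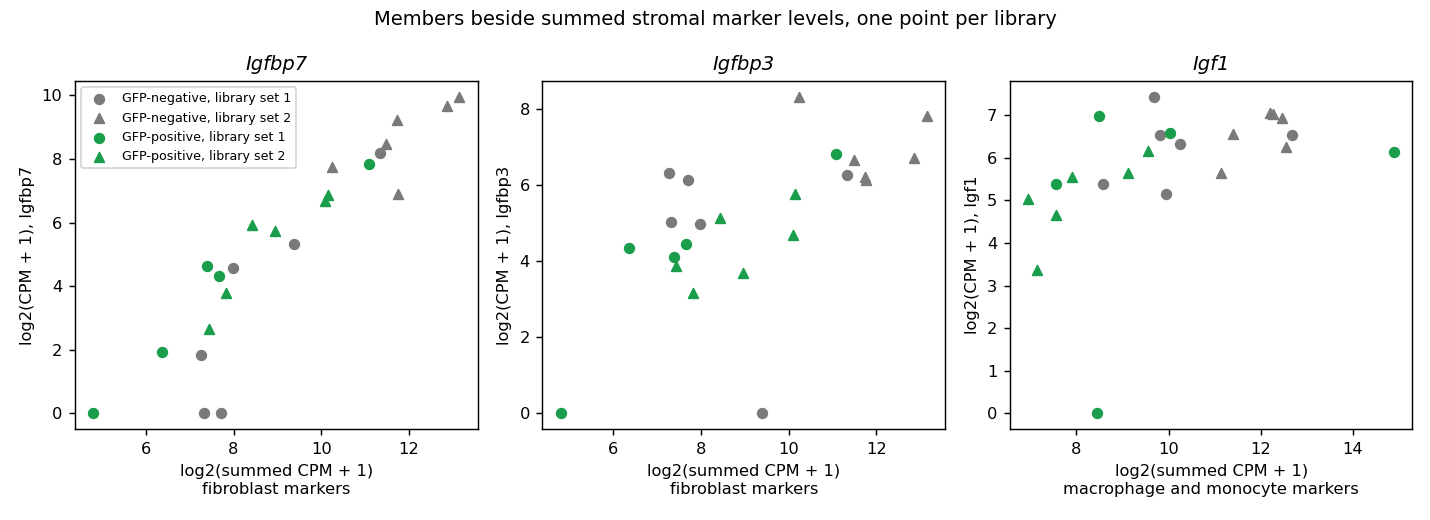
Level of Igfbp7, Igfbp3 and Igf1 (vertical axes, log2(CPM + 1)) against the summed level of fibroblast markers (left and middle) or macrophage and monocyte markers (right), 1 point per library, all 23 libraries. Colours mark the population and shapes the library set. Igfbp7 is higher in libraries with a higher fibroblast sum in both populations.

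The genes whose pattern over the 19 libraries was closest to each member's were named by rank of Spearman rho. For Igfbp7 they were the matrix genes Dcn (0.93), Sparcl1 (0.92) and Tnc (0.92), and for Igfbp4 they were the protease inhibitor gene Timp1 (0.92), Dcn (0.92) and Igfbp7 (0.91). Igfbp5 was closest to Fbln1 (0.91), Sparc (0.81) and the membrane protease gene Mmp14 (0.81). Igfbp3 was closest to the laminin gene Lamc1 (0.88), Sparc (0.83) and the collagen gene Col5a2 (0.83), and Igfbp6 to Ccdc80, Olfml3 and Tgfb3 (each 0.89). Dcn and Fbln1 are among the fibroblast markers above. The nearest genes of Igf1 were Chd9 (0.77), Coro1c (0.75) and Haus3 (0.72), those of Igf1r were Btbd1 (0.84), Sema7a (0.83) and Tubgcp3 (0.80), and those of Igf2r were Qrich1 (0.76), Fhip2a (0.76) and Mgat1 (0.75).

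The rest of the insulin-like growth factor system had no gene called in the filtered fits. Of 48 listed genes 22 were tested over all libraries, with 10 above and 12 below 0 and a median log2 fold change of -0.03, beside 0.07 for all genes tested. In library set 2, where binding protein genes lay lowest, 21 were tested and the median was -0.07. There 2 of the 21 had an unadjusted p under 0.05 in edgeR, beside 478 of all 6952 genes. Among carriers and receptors the endocytic receptor gene Lrp1 had a log2 fold change of -2.31 in library set 2 (SE 0.80, edgeR adjusted p = 0.390). Without the expression filter Lrp1 passed there, at -2.16 (SE 0.45, edgeR adjusted p = 0.000291), in a fit that called more genes than the filtered one. The insulin receptor gene Insr had -0.26 (SE 0.57) in library set 2, while the insulin genes Ins1 and Ins2 had no count. Tmem219, which encodes a receptor for the Igfbp3 protein, had 0.19 (SE 0.41) over all libraries.

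Downstream of the receptors, over all libraries, the adaptor genes Grb2, Irs2 and Shc1 had log2 fold changes of 0.37 (SE 0.38), -0.23 (SE 0.37) and -0.07 (SE 0.38). The pathway genes Rheb, Gsk3b and Pdpk1 had 0.16 (SE 0.22), -0.06 (SE 0.26) and 0.08 (SE 0.41). The metalloprotease gene Adam9 had -0.20 (SE 0.36) and Stc1, whose relative Stc2 restrains the proteases that cut Igfbp4, had -0.05 (SE 0.57). Igf2bp2, an mRNA-binding protein gene, had 0.42 (SE 0.35) over all libraries and 1.15 (SE 0.46, edgeR adjusted p = 0.515) in library set 2, and H19, the imprinted neighbour of Igf2, had 0.05 (SE 0.43).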

How the data were processed

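Poly(A)-selected RNA was measured in 23 libraries, prepared with the NEBNext Ultra II Directional kit per the labels' protocols, which speak of organoids as the RNA source while the design text speaks of tumours. The authors deposited expected counts (estimated counts per gene), made with Salmon 1.3.0 on mm10 per the submitters' processing notes; the values are whole numbers, and the sources used here give neither annotation nor options. Symbols, coordinates and exon lengths came from GENCODE M21, and promoter windows from RefSeq.

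CPM is the count over the library total, without TMM factors. Fold changes are from edgeR 4.0.16 in R 4.3.3 (TMM, filterByExpr, robust quasi-likelihood test, Benjamini-Hochberg adjustment over all genes tested, threshold 0.05), tested on simulated data. SE is the fold change over the square root of F, and intervals are 1.96 SE. Members below the filter take values from an unfiltered fit. The fits used all libraries, each library set, and the interaction. Alternatives were DESeq2 1.42.0, other scaling and filters, libraries of at least 100000 counts, blocks and leaving out each library. A check of counts between libraries of a population found no technical duplicates, but it cannot find separate samples of the same source. Identifier 61-1 named both GFP-positive 2 in library set 1 and GFP-positive 7 in library set 2, the latter with an added suffix. What the suffix stands for is not given in the sources used here, and both entered the fit of all libraries separately. Floors of 3 counts cover counting error only. The members and lists were chosen with earlier results of these data known. The rule names all members, at most 3 genes per list by mean CPM, the 3 genes with the closest pattern for each tested member, defining markers and Basp1.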

Additional observations from a re-analysis of the deposited data

Results flagged for a closer look

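Each member was checked for a library far from the others in its population and library set. Of 40 groups of 5 or 6 libraries, 9 held such a library. The rate of about 1 in 20 groups by chance is for independent, normally distributed values. Here some values rested on few counts, and the members were measured in the same libraries. No excess over chance is therefore read from the 9 groups. Both libraries of identifier 3034 accounted for 7 of them. GFP-positive 1 was far above the other GFP-positive libraries of library set 1 for Igfbp2 (45.5 CPM), Igfbp3 (111 CPM), Igfbp5 (91.8 CPM) and Igfbp7 (227.9 CPM), whose next highest libraries held 2.83, 20.8, 17.5 and 23.8 CPM. GFP-negative 1 was far above the other GFP-negative libraries of that set for Igfbp4 (127 CPM), Igfbp6 (58.8 CPM) and Igfbp7 (292 CPM), whose next highest held 39.3, 17.4 and 39.3 CPM. The remaining 2 were Igf2 in GFP-negative 8 (1.16 CPM, 1 count) and in GFP-positive 11 (2.12 CPM, 3 counts).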

How the results depend on the processing

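Depth limits Igf2, Igfbp2 and, in library set 1, Igfbp4 to Igfbp7, which fell below the filter there. The number of genes called over all libraries was 61 with DESeq2, 3 with a replicate block by identifier and 2 with a replicate block by title number, against 1, and ran from 0 to 16 with 1 library left out (16 without GFP-positive 3). In library set 1 it was 11 with DESeq2 and 0 to 6 with 1 library left out, against 0. In library set 2 it was 288 with DESeq2, 375 without a filter and 140 with the identifier block, against 89, and 65 to 118 with 1 library left out. Of the 7 tested members other than Igfbp3, DESeq2 called 5 there. The interaction gave 1 without a filter, against 0. Whether libraries of the same identifier share a source is not given in the sources used here. Of the 10 pairs by identifier, 5 deviated together with a correlation over 0.1 (-0.22 to 0.40, median 0.099). Of 11 pairs by title number, 2 did so (median -0.018). The best correlation was with their own identifier for 2 of 10 GFP-negative and 4 of 10 GFP-positive libraries or means. The identifier block gave Igfbp4 an edgeR adjusted p of 0.0515, Igfbp6 0.0468 and Igf1 0.0480 in library set 2. The direction changed for few values. Igf1r over all libraries was -0.0072 in libraries of at least 100000 counts and ran from -0.071 to 0.31 with 1 library left out. In library set 1 Igf1 was 0.23 and Igf2r -0.022 with the identifier block, Igfbp6 was -0.027 at 100000 counts, and Igf1 ran from -0.43 to 0.15 with 1 library left out. In library set 2 Igf2 was -0.89 with DESeq2 and Igf1r ran from -0.46 to 0.21 with 1 library left out, and the interaction of Igf2r was -0.19 with DESeq2's size factors. The cause of these changes was not tested. All 40 mean CPM and 20 within-identifier alternatives stayed within 1 SD, but at 100000 counts the within-identifier mean of Igf2r turned from 0.37 to -0.21 and that of Igfbp6 went from -0.81 to -1.55.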
